A study of Mus musculus with 4 samples.

Results

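Chemokines and their receptors were examined in the livers of 4 fasted mice. The members were every probe set, a group of short probes that reads 1 transcript, whose only gene symbol was that of a chemokine, a chemokine receptor or an atypical chemokine receptor. There were 88 such probe sets of 45101 on the array, for 56 genes of 18194 named, 35 of them ligands and 21 receptors. A further 4 probe sets carried such a symbol beside other symbols and were not used. The mice were male C57BL/6J animals aged 12 weeks, fed normal chow, housed individually and deprived of food for 24 h. There were 2 labelled wild-type and 2 labelled Cnot3 heterozygotes, written Cnot3+/-, and the labels call the samples of a genotype biological replicates. The labels do not describe the Cnot3 allele. Cnot3 is a subunit of CCR4-NOT, the complex that shortens the poly(A) tails of mRNAs, and the arrays compare fasted liver RNA of both genotypes. Each array goes by its genotype and its number in the labels, from wild-type 1 to Cnot3+/- 2.

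Chemokines are small secreted proteins that steer leukocytes along a gradient through G protein-coupled receptors. The CC and CXC families are named for the spacing of their first cysteines, and CXC ligands with an ELR motif attract neutrophils while CXCL9, CXCL10 and CXCL11 attract T and NK cells through CXCR3. In liver they come from Kupffer cells, sinusoidal endothelial cells, stellate cells, hepatocytes and arriving leukocytes. Interferon gamma induces the CXCR3 ligands and NF-kappaB many inflammatory ligands. Several inflammatory chemokine mRNAs carry AU-rich elements, through which proteins such as tristetraprolin (Zfp36) bring CCR4-NOT to the transcript.

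All values are log2 expression values on the authors' RMA scale. The array medians lay between 4.62 and 4.66. The hepatocyte markers tested were bright on every array, with albumin (Alb) between 14.80 and 14.87. The label was not borne out by the Cnot3 transcript, which read 7.48 and 8.14 on the wild-type pair and 7.70 and 7.86 on the Cnot3+/- pair. Whether these probes lie in an altered part of Cnot3 is unknown, so every direction here is that of the arrays as labelled. Over the 13379 genes tested, the wild-type pair differed by at least 1 log2 unit in 74 and the Cnot3+/- pair in 432. Each group held 2 arrays, which limits the precision of every difference.

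No chemokine or receptor gene passed the test between genotypes. Of the 56 genes, 34 had a probe set bright enough to be tested, 27 ligands and 7 receptors. Of these, 0 had an adjusted p under 0.05 in limma (Benjamini-Hochberg over all 13379 genes), and the smallest adjusted p was 0.999. Over all genes tested, 0.0149% passed in either direction. At an unadjusted p under 0.05 there were 4 member genes, Ccl9 and Ppbp higher and Ccr2 and Ackr4 lower, where 3.59% of all genes lay under that value, 1.73% higher and 1.85% lower. The median difference over the 34 genes, Cnot3+/- minus wild-type, was 0.06, beside -0.01 over all genes. Of the 34, 21 were higher (61.8%), as were 47.9% of all genes tested.

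The widest spread among the members lay on a single array. On Cnot3+/- 2, a total of 6 of the 34 genes lay at least 1 log2 unit above each of the other 3 arrays, as did 1.56% of all genes tested. They were the CXCR3 ligand genes Cxcl10 and Cxcl9 and the CC ligand genes Ccl5, Ccl3, Ccl6 and Ccl4. Their excess over the wild-type mean on that array ran from 1.22 to 3.85. On Cnot3+/- 1 the same 6 genes lay between -0.33 and -0.03 of the wild-type mean. No member gene stood alone in this way, above or below, on Cnot3+/- 1, wild-type 1 or wild-type 2, as 0.366% of all genes did. The highest of the 4 values lay on Cnot3+/- 2 in 15 of the 34 genes, beside 24.9% of all genes, and 14 of the 15 were ligands. The difference between genotypes was at least 1 in Cxcl10, Ccl5, Cxcl9, Ccl3 and Ccl6, as in 0.516% of all genes. Ccl3 passed the filter on dim probe sets through this array, since its wild-type mean lay below the filter value of 4.06, so its place among the tested genes was not independent of its high value. Ppbp and Ccl20 also had wild-type means below the filter value, so their places among the tested genes were not independent of their Cnot3+/- values. Kupffer cell markers were high on the same array, and in whole liver RNA more cells of a type and more RNA per cell cannot be told apart.

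**Figure D1:**
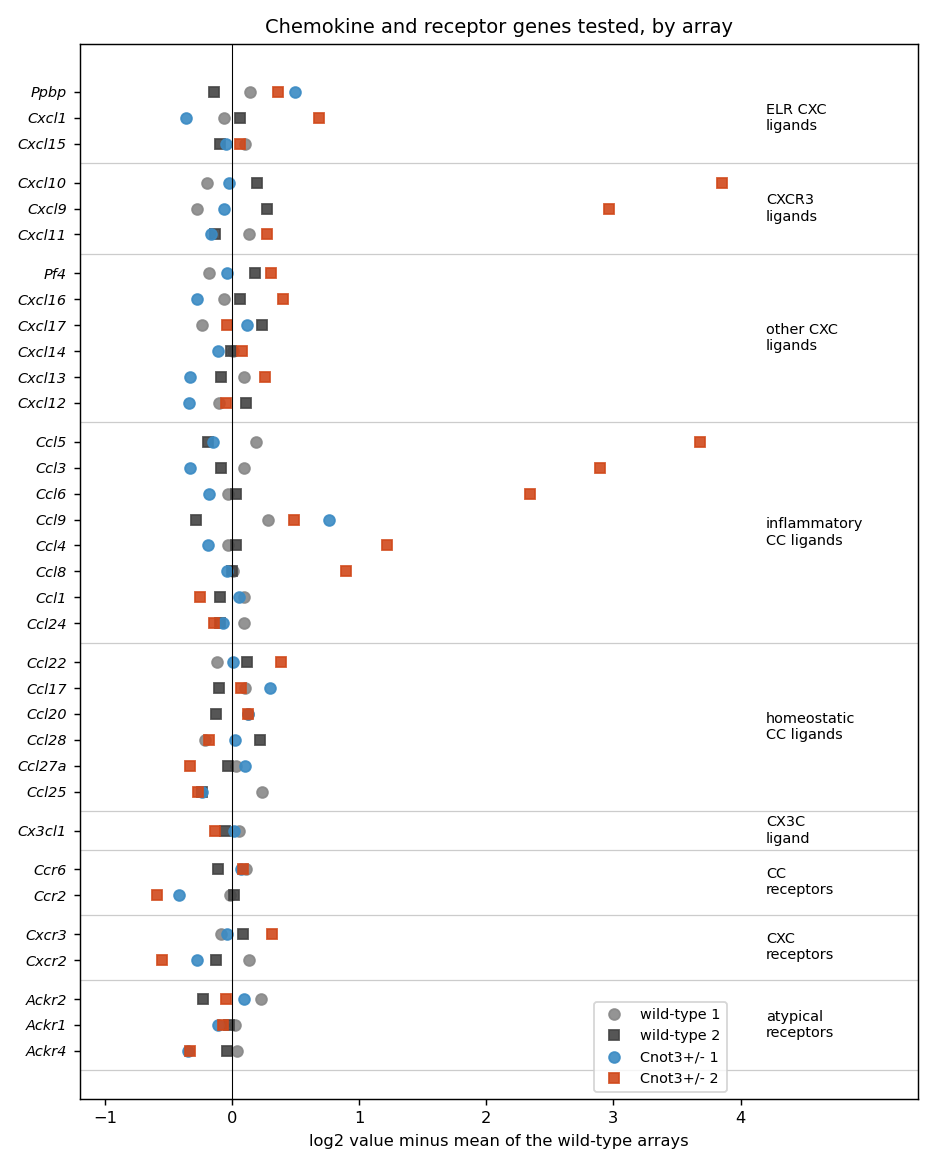
The log2 value of each tested chemokine or receptor gene minus its wild-type mean, 1 row per gene grouped by role and 1 point per array (grey and black for the wild-type arrays, blue for Cnot3+/- 1, red for Cnot3+/- 2). Cxcl10, Ccl5, Cxcl9, Ccl3, Ccl6 and Ccl4 lie at least 1 above the other arrays on Cnot3+/- 2 only, and the remaining 28 genes lie between -0.59 and 0.90 on that array.

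The promoters of genes from both patterns are shown for the motifs through which chemokine genes are best known to be induced, Cxcl10, Cxcl9 and Ccl6 because they were high on Cnot3+/- 2 and Ccl9 because it was higher on both arrays labelled Cnot3+/-. Sequences are RefSeq's, build GRCm38.p6, the 250 bases before the gene start on the strand of the gene. Capitals mark matches, on either strand, to the NF-kappaB consensus, to the core of the interferon-stimulated response element (ISRE, the letters GAAA, any 2 bases, then GAAA) or to the gamma-activated site (GAS, TTCNNNGAA). Cxcl10 lies at chr5:92348890-92349139, Cxcl9 at chr5:92328080-92328329, Ccl6 at chr11:83593088-83593337 and Ccl9 at chr11:83578637-83578886, all on the minus strand.
Cxcl10: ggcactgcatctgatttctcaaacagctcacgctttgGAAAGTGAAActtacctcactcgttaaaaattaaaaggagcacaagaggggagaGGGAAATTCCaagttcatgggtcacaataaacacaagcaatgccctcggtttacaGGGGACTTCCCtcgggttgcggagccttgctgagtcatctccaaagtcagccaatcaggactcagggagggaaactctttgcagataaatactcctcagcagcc
Cxcl9: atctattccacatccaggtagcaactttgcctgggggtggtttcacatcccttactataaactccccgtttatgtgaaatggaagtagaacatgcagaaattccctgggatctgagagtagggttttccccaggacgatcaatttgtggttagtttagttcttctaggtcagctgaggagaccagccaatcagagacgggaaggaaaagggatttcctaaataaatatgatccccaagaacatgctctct
Ccl6: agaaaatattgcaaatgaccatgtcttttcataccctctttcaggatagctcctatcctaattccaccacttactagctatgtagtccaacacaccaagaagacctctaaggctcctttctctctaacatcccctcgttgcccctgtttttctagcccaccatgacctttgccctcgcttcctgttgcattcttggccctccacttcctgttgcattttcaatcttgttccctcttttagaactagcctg
Ccl9: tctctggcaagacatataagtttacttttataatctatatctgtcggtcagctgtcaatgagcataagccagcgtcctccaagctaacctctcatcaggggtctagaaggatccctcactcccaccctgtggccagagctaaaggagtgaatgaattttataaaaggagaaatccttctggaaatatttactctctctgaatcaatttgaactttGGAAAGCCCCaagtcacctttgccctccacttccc
The Cxcl10 window held 1 ISRE core, starting 213 bases before the gene start, and 3 matches to the NF-kappaB consensus, starting 159, 104 and 103 bases before it. The last 2 of these overlap and are capitalised as 1 run. Ccl9 held 1 NF-kappaB match, 35 bases before the gene start. The Cxcl9 and Ccl6 windows held none of these letters. A promoter was found for 43 of the 56 genes, and 11 of these held the NF-kappaB consensus, 2 the ISRE core and 4 the GAS. Over all 32851 promoter windows of the same length, the shares were 7.25%, 2.98% and 7.02%. The member counts are of genes with a match in any of their windows and these shares are of windows, so the units are unlike. Ccl5 and Ccl4 had no entry. A match describes letters in a window and says nothing of binding in these livers.

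Among the CXCR3 ligands, Cxcl10 gave the largest difference of any member. It read 4.83 on wild-type 1 and 5.22 on wild-type 2, against 5.0 on Cnot3+/- 1 and 8.88 on Cnot3+/- 2. Cnot3+/- 1 lay between the wild-type arrays, and Cnot3+/- 2 stood 14.4-fold above their mean. The difference between genotypes was 1.91 (SE 1.22, with 2 arrays per group and a limma adjusted p = 0.999), and its 95% confidence interval ran from -1.19 to 5.02. Without Cnot3+/- 2 it was -0.03, and without Cnot3+/- 1 it was 3.85.

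Cxcl9, induced by interferon gamma and made largely by macrophages and endothelium, was brighter and had the same shape. It stood at 6.95 and 7.50 on the wild-type pair, 7.17 on Cnot3+/- 1 and 10.19 on Cnot3+/- 2. Its second probe set gave 4.08 and 4.26 on the wild-type pair, 4.08 on Cnot3+/- 1 and 6.86 on Cnot3+/- 2. Both probe sets were thus high on Cnot3+/- 2 alone. The difference was 1.45 (SE 0.96), and -0.06 without Cnot3+/- 2. Cxcl11, which C57BL/6 mice carry in a frameshifted form, was dim on every array, between 4.23 and 4.67, and its groups overlapped (difference 0.06, SE 0.20). The receptor gene of this axis, Cxcr3, found on T and NK cells, stood at 5.53 and 5.71 on the wild-type pair, 5.58 on Cnot3+/- 1 and 5.93 on Cnot3+/- 2. Its difference was 0.14 (SE 0.18).

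Among the inflammatory CC ligands, 8 of 12 genes were tested, of which 6 were higher and 2 lower. Their median difference was 0.57, beside -0.01 over all genes. Ccl5 (RANTES), a ligand made by T cells, NK cells and macrophages, stood at 5.90 and 5.53 on the wild-type pair, 5.56 on Cnot3+/- 1 and 9.40 on Cnot3+/- 2. The last value was 12.8-fold above the wild-type mean, while Cnot3+/- 1 lay between the wild-type arrays. The difference was 1.77 (SE 1.21, adjusted p = 0.999 in limma), and -0.15 without Cnot3+/- 2. Ccl3 (MIP-1 alpha) was near the bottom of the scale on 3 arrays, at 3.62 and 3.43 in wild-type and 3.20 in Cnot3+/- 1, and stood at 6.42 in Cnot3+/- 2. Its difference was 1.28 (SE 1.01), and -0.33 without that array.

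Ccl4 (MIP-1 beta), a macrophage and lymphocyte product, followed at a smaller size. It stood at 5.46 and 5.52 on the wild-type pair, 5.30 on Cnot3+/- 1 and 6.71 on Cnot3+/- 2, a difference of 0.51 (SE 0.46) that was -0.19 without Cnot3+/- 2. Ccl6, a rodent CC ligand of myeloid cells that acts through CCR1, stood at 7.08 and 7.14 on the wild-type pair, 6.93 on Cnot3+/- 1 and 9.45 on Cnot3+/- 2. The wild-type arrays were close together for Ccl6 and Cnot3+/- 1 lay just below them. Its second probe set ran from 5.50 to 5.64 on those 3 arrays and stood at 7.65 on Cnot3+/- 2. The difference of Ccl6 was 1.08 (SE 0.80), and -0.18 without Cnot3+/- 2. Ccl8 (MCP-2) stood at 5.37 and 5.37 on the wild-type pair, 5.33 on Cnot3+/- 1 and 6.27 on Cnot3+/- 2, a difference of 0.43 (SE 0.32).

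**Figure D2:**
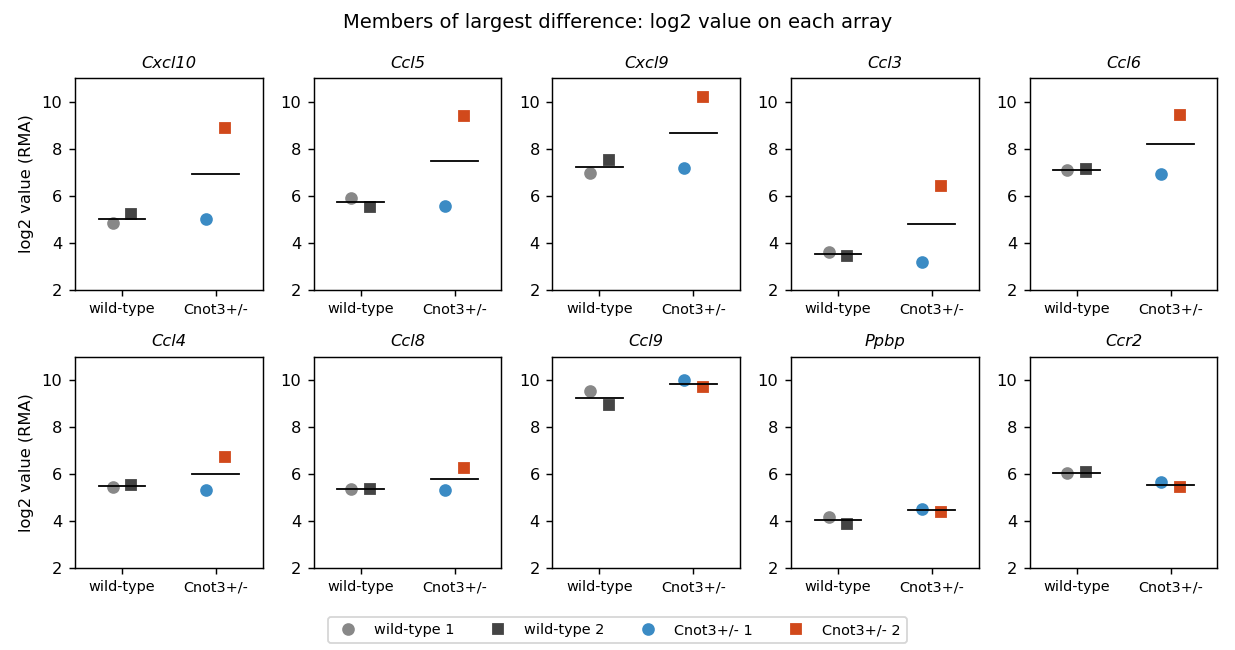
The log2 value on each array for the 10 tested members of largest absolute difference, 1 panel per gene on a common axis, with a line at each group mean. In Cxcl10, Ccl5, Cxcl9, Ccl3, Ccl6, Ccl4 and Ccl8 the higher Cnot3+/- mean comes from Cnot3+/- 2, whereas in Ccl9, Ppbp and Ccr2 the 2 arrays labelled Cnot3+/- lie on the same side of both wild-type arrays.

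Ccl9 was the inflammatory ligand that was higher on both arrays labelled Cnot3+/-. It encodes MIP-1 gamma, a rodent ligand of CCR1, and was the second brightest member after Cxcl12. It stood at 9.52 and 8.95 in wild-type and at 9.99 in Cnot3+/- 1 and 9.72 in Cnot3+/- 2, so the groups did not overlap, although the gap between wild-type 1 and Cnot3+/- 2 was smaller than that between the wild-type arrays. The difference was 0.62 (SE 0.23), a fold of 1.54 with a 95% confidence interval from 1.02 to 2.33, with an unadjusted p = 0.0435 and an adjusted p = 0.999 in limma. A second probe set stood at 8.28 and 7.57 on the wild-type pair and 8.67 and 8.39 on the Cnot3+/- pair, a difference of 0.61 (SE 0.26). With 1 array left out the difference was smallest without wild-type 2 (0.34) and largest without wild-type 1 (0.91).

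The remaining inflammatory CC ligands were near wild-type or dim. Ccl24 (eotaxin 2), an eosinophil attractant, differed by -0.11 (SE 0.14), and Ccl1, a CCR8 ligand, by -0.10 (SE 0.17). Ccl2 (MCP-1), the main monocyte attractant through CCR2, fell under the brightness filter and was not tested. It stood at 3.61 and 3.79 on the wild-type pair, 3.67 on Cnot3+/- 1 and 4.67 on Cnot3+/- 2. Ccl7, Ccl11 and Ccl12, further ligands of monocytes and eosinophils, were also too dim to test, with values from 2.54 for Ccl12 to 4.15 for Ccl7.

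Of the 12 inflammatory CC genes, all but Ccl24 lie in 2 runs of neighbours on chromosome 11 in the gene order of GRCm38.p6, with 25 coding genes between the runs. Ccl5, Ccl9, Ccl6, Ccl3 and Ccl4 are adjacent in that order and were all tested. On Cnot3+/- 2 they lay 3.68, 0.49, 2.35, 2.90 and 1.22 above the wild-type mean. On Cnot3+/- 1 they lay at -0.15, 0.76, -0.18, -0.33 and -0.19. Ccl9 thus differed from its neighbours in being high on Cnot3+/- 1. The other run, Ccl2, Ccl7, Ccl11, Ccl12, Ccl8 and Ccl1, had 2 tested genes, Ccl8 at 0.90 and Ccl1 at -0.25 on Cnot3+/- 2. On chromosome 5, Cxcl9 and Cxcl10 lie with 1 coding gene between them.

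The ELR CXC ligands, which draw neutrophils through CXCR2, were mostly dim. Of 6 genes, 3 were tested and 3 had a positive difference, none passing the test. Cxcl1 (KC) stood at 5.61 and 5.74 on the wild-type pair, 5.31 on Cnot3+/- 1 and 6.36 on Cnot3+/- 2 on the probe set used, and differed by 0.16 (SE 0.35). Its other probe sets, which may also match related transcripts, were brighter and differed by -0.03 (SE 0.20) and 0.01 (SE 0.14). Cxcl2 (MIP-2) was not tested and stood at 2.70 and 2.83 on the wild-type pair, 2.94 on Cnot3+/- 1 and 4.41 on Cnot3+/- 2, the only untested member with a value at least 1 above each other array on Cnot3+/- 2. Cxcl15, an airway ELR ligand, overlapped between groups at 4.2 to 4.4, and Cxcl3 and Cxcl5 lay between 2.23 and 2.43 on every array.

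Ppbp (CXCL7), a platelet ELR chemokine, was higher on both arrays labelled Cnot3+/-, at 4.16 and 3.88 on the wild-type pair and 4.51 and 4.38 on the Cnot3+/- pair. The groups did not overlap. The difference was 0.43 (SE 0.16, unadjusted p = 0.0416, limma adjusted p = 0.999), and stayed between 0.29 and 0.57 whichever array was left out. Pf4 (CXCL4), the other platelet chemokine, overlapped between groups, at 4.81 and 5.18 on the wild-type pair and 4.96 and 5.30 on the Cnot3+/- pair. Of the 5 platelet and megakaryocyte markers tested, 3 were higher and 2 lower, with list means between 5.24 and 5.34 on the 4 arrays; the part of platelets in the Ppbp value was not tested.

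Cxcl12 (SDF-1), the ligand of CXCR4 and ACKR3 made by stromal and endothelial cells, was the brightest member and showed little spread. It stood at 10.10 and 10.31 on the wild-type pair, 9.87 on Cnot3+/- 1 and 10.16 on Cnot3+/- 2. The difference was -0.19 (SE 0.17), with a 95% confidence interval from -0.63 to 0.24, and a second bright probe set differed by 0.07 (SE 0.21). Both its receptors were too dim to test, Cxcr4 with values from 3.10 to 3.89 and Ackr3 from 2.82 to 3.16. Cxcr4 was highest on Cnot3+/- 2.

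Of the other CXC ligands, Cxcl16, the membrane-bound ligand of CXCR6, stood at 7.09 and 7.22 on the wild-type pair, 6.87 on Cnot3+/- 1 and 7.55 on Cnot3+/- 2. Its groups overlapped, with a difference of 0.06 (SE 0.25). A second probe set of Cxcl16 had the same order with a wider spread, at 5.96 and 6.12 on the wild-type pair, 5.73 on Cnot3+/- 1 and 7.19 on Cnot3+/- 2. Cxcl13, the B cell attractant, differed by -0.04 (SE 0.23), and another of its probe sets by 0.29 (SE 0.38). Cxcl14 differed by -0.01 (SE 0.14), and Cxcl17 by 0.04 (SE 0.20). All 6 genes of this group were tested, 3 higher and 3 lower.

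The homeostatic and barrier CC ligands stayed near wild-type on all arrays. All 6 genes with members were tested, 3 higher and 3 lower, and their median was 0.02. Against wild-type they averaged 0.05 on Cnot3+/- 1 and -0.03 on Cnot3+/- 2. Ccl27a, a skin-type CC ligand, was the brightest at 7.16 and 7.10 on the wild-type pair, 7.23 on Cnot3+/- 1 and 6.80 on Cnot3+/- 2, a difference of -0.11 (SE 0.19). It was read by an _x_at probe set, a kind that can match related transcripts. The dendritic cell products Ccl22 and Ccl17, ligands of CCR4, differed by 0.20 (SE 0.19) and 0.18 (SE 0.16). Ccl25, the thymic and gut ligand of CCR9, differed by -0.25 (SE 0.19), Ccl28 by -0.08 (SE 0.20) and Ccl20, the CCR6 ligand, by 0.13 (SE 0.15). Cx3cl1 (fractalkine) stood between 4.96 and 5.14 and differed by -0.06 (SE 0.14).

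Receptors were dim, and only 7 of 21 were bright enough to test. Of these, 3 were higher and 4 lower, and none passed. Ccr2, which marks inflammatory monocytes, was the lowest member by difference, at 6.04 and 6.07 on the wild-type pair and 5.64 and 5.46 on the Cnot3+/- pair. The groups did not overlap on this probe set. The difference was -0.51 (SE 0.14), with a 95% confidence interval from -0.86 to -0.15, an unadjusted p = 0.0137 and a limma adjusted p = 0.999. The other 3 Ccr2 probe sets were dimmer than the filter, with values from 3.01 to 3.91, and differed by 0.01, 0.06 and 0.21. The lower value of Ccr2 was thus seen on 1 of its 4 probe sets.

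Cxcr2, the receptor of ELR ligands on neutrophils, stood at 4.68 and 4.42 on the wild-type pair and 4.27 and 4.0 on the Cnot3+/- pair, a difference of -0.41 (SE 0.17). Ccr6 differed by 0.08 (SE 0.14). Of the atypical receptors, which bind chemokines without G protein signalling, Ackr1 differed by -0.09 (SE 0.13) and Ackr2, which clears inflammatory CC ligands, by 0.02 (SE 0.19). Ackr4, the scavenger of CCL19, CCL21 and CCL25, stood at 5.54 and 5.46 on the wild-type pair and 5.15 and 5.17 on the Cnot3+/- pair, a difference of -0.34 (SE 0.13, unadjusted p = 0.0457, limma adjusted p = 0.999). A dimmer Ackr4 probe set differed the other way, by 0.32 (SE 0.18), and another by -0.03 (SE 0.13). Over all members tested, groups did not overlap in 3 genes that were higher (Ccl9, Ppbp and Ccl20) and 4 that were lower (Ccr2, Cxcr2, Ackr4 and Ackr1), 8.82% and 11.8% of the 34, beside 14.1% and 17.4% of all genes. In Ccl20 the gap was under 0.01.

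The 22 genes not tested, 8 ligands and 14 receptors, had values between 2.23 and 4.67 on every array. Ccr7, the lymph node homing receptor, stood at 3.68 and 3.71 on the wild-type pair and 4.14 and 4.28 on the Cnot3+/- pair. The dendritic cell receptor Xcr1 stood at 2.98 and 3.17 on the wild-type pair and 3.44 and 3.41 on the Cnot3+/- pair. Cx3cr1, the fractalkine receptor of monocytes, lay between 3.77 and 4.07 on its brighter probe set. Ccr1, the receptor of Ccl3, Ccl5, Ccl6 and Ccl9, lay between 3.14 and 3.60 on its brighter probe set and was highest on Cnot3+/- 2. The remaining receptor genes Ccr1l1, Ccr3, Ccr4, Ccr8, Ccr9, Ccr10, Cxcr5 and Cxcr6 and the XCR1 ligand gene Xcl1 lay in the same dim range.

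**Figure D3:**
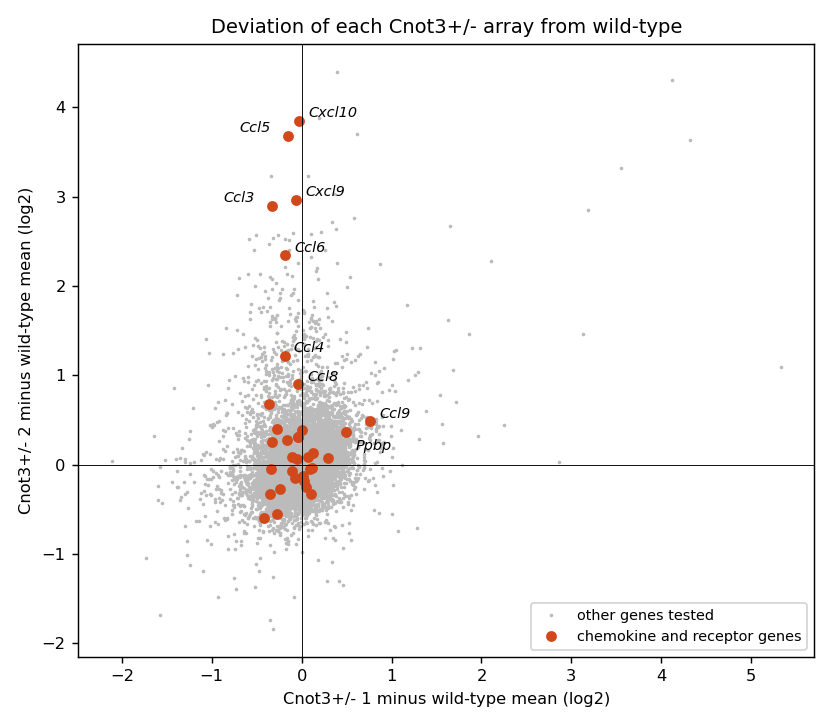
For each of 13379 genes tested, the log2 value on Cnot3+/- 1 minus the wild-type mean (horizontal) against that on Cnot3+/- 2 (vertical), with the 34 chemokine and receptor genes in red. Cxcl10, Ccl5, Cxcl9, Ccl3, Ccl6 and Ccl4 lie high on the vertical axis at -0.33 to -0.03 on the horizontal one, and Ccl9 lies at 0.76 and 0.49. Both axes subtract the same wild-type mean.

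Genes that act upstream and downstream of chemokines were summarised by list. Of 26 inducers of chemokine genes tested, 23 were higher and 3 lower, 0 passed the test, and the median difference was 0.33 beside -0.01 over all genes. As a list they averaged 0.04 over wild-type on Cnot3+/- 1 and 0.68 on Cnot3+/- 2. The list also holds the NF-kappaB inhibitor genes Nfkbia and Tnfaip3, both counted among the 23 higher. Irf7, an interferon regulatory factor, differed by 0.87 (SE 0.49), Fos and Jun, subunits of AP-1, by 0.80 (SE 0.67) and 0.80 (SE 0.57), and the NF-kappaB inhibitor gene Tnfaip3 by 0.74 (SE 0.48). All 4 were highest on Cnot3+/- 2, where Irf7 stood at 9.49 against 7.89 and 7.80 in wild-type and 7.95 in Cnot3+/- 1. Of the 26, groups did not overlap in 7 that were higher and 0 that were lower, beside 14.1% and 17.4% of all genes. Among the 7, Il1r1 lay 0.86 above the wild-type mean on Cnot3+/- 1 and 0.43 on Cnot3+/- 2. Nfkb2 lay 0.40 and 0.70 above it in the same order. Ifng and Il6 were too dim to test.

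The receptor signalling list had 20 of 28 tested genes higher and 8 lower, 0 past the test, with a median of 0.13. Its largest differences were those of the leukocyte integrin genes Itgal at 0.89 (SE 0.66) and Itgb2 at 0.84 (SE 0.82) and of the receptor desensitiser Rgs1 at 0.66 (SE 0.63), each highest on Cnot3+/- 2. Of the other chemoattractant, adhesion and processing genes, 10 of 12 tested were higher. Vcam1, the endothelial adhesion molecule for leukocytes, stood at 7.67 and 7.88 on the wild-type pair, 7.64 on Cnot3+/- 1 and 10.29 on Cnot3+/- 2. Groups in that list did not overlap in 4 genes that were higher and 2 that were lower, beside 14.1% and 17.4% of all genes. The 2 lower genes were Selp, at -0.38 (SE 0.13), and Mmp9, at -0.34 (SE 0.13). The AU-rich element binding proteins and other regulators of chemokine mRNA decay had 7 of 12 genes higher and 5 lower, a median of 0.05, and means of 0.05 and 0.14 above wild-type in Cnot3+/- 1 and Cnot3+/- 2. Zfp36 differed by -0.01 (SE 0.15) and Zfp36l1 by -0.05 (SE 0.18). Khsrp, another such protein, differed by 0.33 (SE 0.26), from 4.75 in wild-type 1 to between 5.43 and 5.50 on the other 3 arrays.

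The lists of Kupffer, monocyte, T, NK and stellate cell markers were, by their means, also highest on Cnot3+/- 2. All 11 Kupffer cell markers tested lay at least 1 above each other array there, with list means of 8.08 and 8.26 on the wild-type pair, 7.89 on Cnot3+/- 1 and 9.97 on Cnot3+/- 2. Of the 4 NK cell markers tested, 3 were highest on Cnot3+/- 2, Nkg7 at 2.54, Gzmb at 2.07 and Klrk1 at 0.58 above the wild-type mean. Prf1 was lowest there, at -0.48. The NK cell list had means of 4.32 and 4.09 on the wild-type pair, 4.28 on Cnot3+/- 1 and 5.38 on Cnot3+/- 2, and its defining marker Ncr1 was too dim to test. The T cell list, with 5 tested, had means of 4.91 and 4.99, 4.82 and 5.63 in the same order and the monocyte list, with 4 tested, 5.85 and 5.88, 5.87 and 6.56. On Cnot3+/- 2 the T cell markers ran from Cd4 at 0.05 to Cd3g at 1.63 above the wild-type mean. The monocyte markers ran there from Trem2 at 0.06 to Lyz2 at 1.28. Stellate cell and fibroblast markers had means of 7.05 and 6.98, 6.73 and 7.55, and 5 of 8 were highest on Cnot3+/- 2. Among these 5, the collagen genes Col3a1 and Col1a1 lay at 1.61 and 1.08 above the wild-type mean and Lrat at 0.39. Of those not highest there, Acta2 lay at -0.12, Reln at -0.004 and Des at 0.09 on that array. The neutrophil list had means of 4.86 and 4.86, 4.88 and 5.19, but only 3 of its 8 tested markers were highest on Cnot3+/- 2 and its median there was -0.065 against wild-type. S100a8 and S100a9 lay 1.70 and 1.21 above the wild-type mean on that array, while Camp, Elane, Ltf, Mpo and Ngp lay below it. The wild-type means of Klrk1, Cd3g, Col1a1 and S100a8 lay below the filter value of 4.06. Their places among the tested genes, and in the list means and counts, were thus not independent of their high values on Cnot3+/- 2. The dendritic cell list averaged 0.24 above wild-type on that array with a median of -0.11, and the cholangiocyte list, with 3 markers tested, averaged 0.17 on Cnot3+/- 1 and 0.40 on Cnot3+/- 2. Hepatocyte markers had list means between 14.22 and 14.28 and B cell markers between 5.53 and 5.62. Sinusoidal endothelial markers, by contrast, were lowest in Cnot3+/- 1, with list means of 7.73 and 7.87 on the wild-type pair, 6.84 on Cnot3+/- 1 and 7.61 on Cnot3+/- 2. All 8 tested had a lower Cnot3+/- mean, with a median difference of -0.49. In 5 of the 8 both arrays labelled Cnot3+/- lay below both wild-type arrays, as in 17.4% of all genes. The part of these cells in the chemokine values was not tested.

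**Figure D4:**
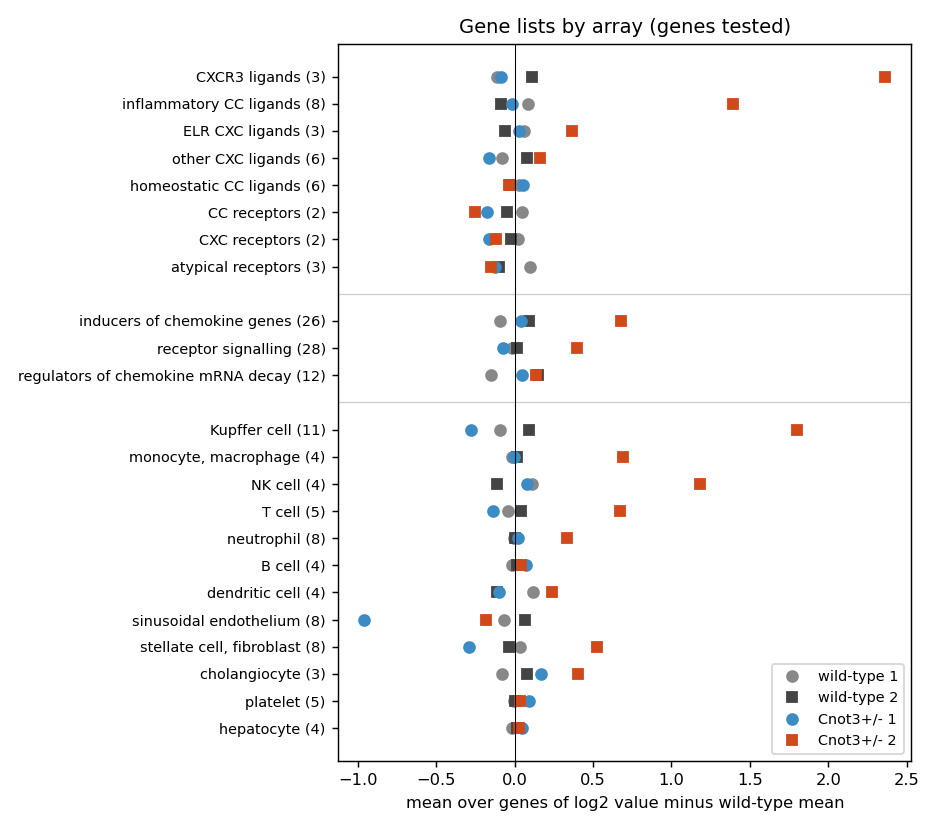
The mean over the tested genes of each list of the log2 value minus the wild-type mean, 1 point per array, with the number of genes tested in brackets; the top block holds the chemokine and receptor groups, the middle block the genes around them and the lowest block cell type markers. On Cnot3+/- 2 the CXCR3 ligands lie at 2.36, the inflammatory CC ligands at 1.39 and the Kupffer cell markers at 1.80, and on Cnot3+/- 1 the same lists lie at -0.08, -0.02 and -0.28.

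The direction of the differences of Cxcl10, Ccl5, Cxcl9, Ccl3, Ccl6, Ccl4 and Ccl8 rested on Cnot3+/- 2. Without it, these genes differed from wild-type by -0.33 to -0.03, and the median over the members was -0.06. Leaving out Cnot3+/- 1 instead, 5 member genes passed the test (Cxcl10, Ccl5, Cxcl9, Ccl3 and Ccl6, limma adjusted p between 0.0263 and 0.0468), where 38 of all genes did. That fit sets 1 array against 2 and assumes that the lone array varies like the others, so its calls describe that array and not the genotype. Ccl9, Ppbp and Ccr2 kept their direction whichever array was left out. This follows from their groups not overlapping and is no separate support. Cxcl12, whose groups overlapped, also kept its direction, from -0.34 to -0.04.

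**Figure D5:**
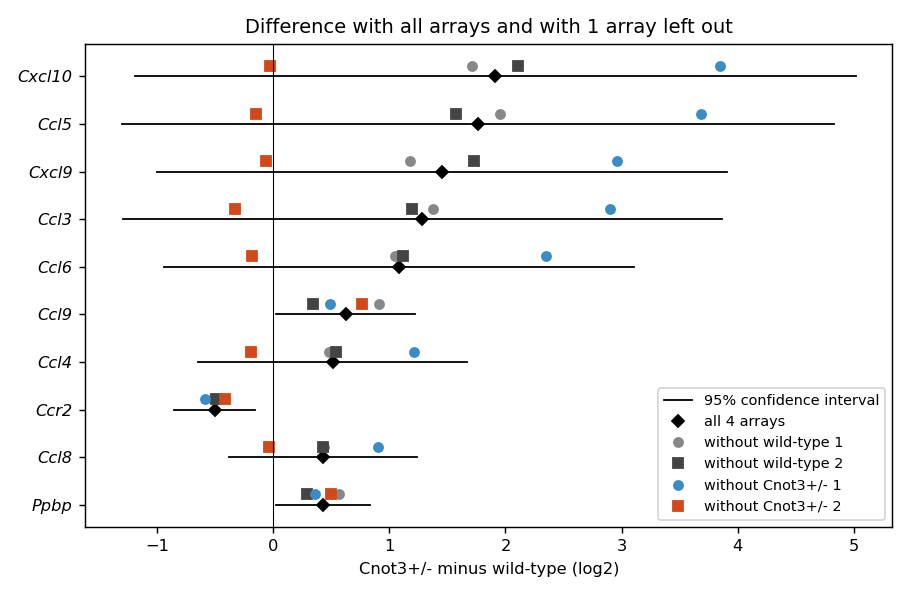
The difference between Cnot3+/- and wild-type on the log2 scale for the 10 tested members of largest absolute difference: a diamond with its 95% confidence interval for all 4 arrays, and coloured points for the fits with 1 array left out. For Cxcl10 the points run from -0.03 without Cnot3+/- 2 to 3.85 without Cnot3+/- 1, and for Ccr2 from -0.59 to -0.42.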

How the data were processed

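Per the labels' protocols, total RNA became biotinylated cRNA for 1-colour Affymetrix arrays. The deposited values are log2 signals, for which the submitters' processing notes name RMA; RMA's version was not given in the sources used here, and the range of the values (1.85 to 14.96) bears out a log2 scale. Probe sets were named through the platform annotation, and those with 1 symbol (34958 of 45101) were used. Probe sets in the lowest 40% of mean value (below 4.06) were left out, and each gene was represented by its brightest remaining probe set, with _x_at and _s_at kinds used only where no other remained. The 13379 genes went into limma 3.58.1 under R 4.3.3 (lmFit, eBayes; genotype alone, 2 arrays per group, two-sided), and p-values were adjusted by Benjamini-Hochberg over all of them at a threshold of 0.05. The fit had 2 residual degrees of freedom and the prior added 3.17. SE is the moderated standard error. Values of probe sets not used carry the SE of a fit over all probe sets. The script was tested on simulated data. Each p-value sets a difference against a variance drawn partly from the spread between these few animals and partly from the prior over all genes.

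The members and lists were chosen with earlier results of these data known. Genes chosen to be named were the 10 of largest difference, the 10 brightest and the defining genes of each role. Those whose groups do not overlap and whose difference is at least 0.5 were also chosen. Most are given with values on each array. Ackr2 and Cxcl13 are given by differences only, and some defining genes by a range. Of the other lists, up to 4 of largest difference are given. Others, such as Ccr7, Xcr1, Cxcl2, Zfp36, Khsrp, Il1r1 and Nfkb2, were named after their values were seen. Alternatives covered each array left out, the replicate number as a block, the filter, the choice of probe set, normalization and the variance model.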

Additional observations from a re-analysis of the deposited data

How the results depend on the processing

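The count of member genes called was 0 under 13 of the 14 alternatives, the exception being 5 without Cnot3+/- 1. Over all genes the count of calls ran from 0 to 38 with 1 array left out. It was 2 in every other alternative except the replicate block, where it was 0. With no moderation of variances the 2 genes called were different ones, none of them shared with the main setting. The replicate numbers come from the titles and are not stated to pair animals (correlation of the deviations of same-numbered arrays 0.16), and the block called 0 member genes. The median over member genes ran from -0.056 to 0.11 with 1 array left out. The 20 named members gave 275 values under the alternatives, of which 24 had the opposite sign, 21 of them with 1 array left out. The ranges with 1 array left out were -0.027 to 3.85 for Cxcl10, -0.15 to 3.68 for Ccl5, -0.061 to 2.96 for Cxcl9, -0.33 to 2.90 for Ccl3, -0.18 to 2.35 for Ccl6, -0.19 to 1.22 for Ccl4, -0.039 to 0.90 for Ccl8, -0.37 to 0.68 for Cxcl1, -0.043 to 0.32 for Cxcr3, -0.28 to 0.40 for Cxcl16, -0.16 to 0.27 for Cxcl11, -0.094 to 0.10 for Cxcl15, -0.33 to 0.26 for Cxcl13, -0.21 to 0.25 for Ackr2, -0.13 to 0.017 for Cx3cl1 and -0.33 to 0.10 for Ccl27a. With a gene's probe sets averaged, Ackr2 was -0.015 and Cxcl13 0.12, and after quantile normalization Ackr2 was -0.0065. The cause of these changes was not tested beyond the array left out. Dim probe sets and 2 arrays per group set the limits of what could be detected.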
